A study of Sus scrofa with 50 samples.

Results

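BTG4 and the CCR4-NOT deadenylase were followed through 10 genes: BTG4, ZAR1, the CCR4-NOT subunits CNOT1, CNOT2, CNOT3, CNOT6, CNOT6L, CNOT7 and CNOT8, and PAN2 of a second deadenylase. The genes were taken by their NCBI Gene identifiers, 10 of the 30321 identifiers in the tables. RNA was sequenced from 50 single porcine embryos, 1 Smart-seq2 library per embryo. In vivo developed embryos came from German Landrace × Pietrain gilts inseminated with sperm of a Duroc boar, and were flushed as 4-cell embryos (n = 5) on day 2, morulae (n = 10) on day 4 and hatched blastocysts (n = 10) on day 6 after insemination. In vitro produced embryos came from oocytes of abattoir ovaries, matured and fertilized in culture with frozen sperm of the same boar, and were taken as 4-cell embryos (n = 5) at 2 days, morulae (n = 10) at 4 days and 4 h, and hatched blastocysts (n = 10) at 7 days and 6 h after fertilization. The in vitro 4-cell embryos and morulae were drawn from embryos preselected at the 2-cell stage. Morulae and hatched blastocysts were labelled female or male, unevenly between the sources, 4-cell embryos were not sexed, and sex was not modelled here. A group of in vivo embryos came from a few gilts, and several fertilization experiments gave those produced in vitro. Neither is given per embryo, so some embryos of a group share a dam or an experiment and p-values measure only the spread between these embryos.

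As background, an oocyte stores mRNA that the embryo uses until its own genome is transcribed, and this stored mRNA is then cleared. Shortening of the poly(A) tail is an early step of that clearance. CCR4-NOT is the main deadenylase of the cytoplasm: CNOT1 is the scaffold, CNOT2 and CNOT3 form a regulatory module, and the catalytic subunits are CNOT7 or CNOT8 in one slot and CNOT6 or CNOT6L in the other. BTG4, an oocyte protein, brings CCR4-NOT to maternal mRNA in the mouse. ZAR1 is an oocyte RNA-binding protein that stabilizes stored mRNA in the mouse. PAN2 is the catalytic subunit of PAN2-PAN3, which trims long tails. The libraries were primed with oligo-dT, so a lower value can be fewer transcripts or transcripts with too short a tail to be primed, and these cannot be told apart here. Values are scaled to the depth of each library, so a fall or rise is relative to the other transcripts of the embryo. The RNA of a whole embryo or of a cell, and the number or size of cells, cannot be read from them.

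Values were CPM, reads of a gene scaled to a common library size after normalization, and were not divided by gene length. The depth recovered from the values was 4195985 ± 1289683 reads per embryo (SD, n = 49), from 1438600 to 7714793. More than 0.1 CPM was found in a median of 10914 genes in in vivo 4-cell embryos and 16554 in in vitro 4-cell embryos, and medians of the morulae and hatched blastocysts lay between 13740 and 15347.5 genes. A pair of embryos stood apart. The in vivo 4-cell replicate C1 had 6209 detected genes, and the in vitro morula replicate B2 had a summed level of 10 oocyte markers of 1149 CPM against 57.4 to 267 CPM in the other 9 in vitro morulae. The median sum of the oocyte markers was 6754 CPM in 4-cell embryos developed in vivo, 8596 CPM in those produced in vitro, and at most 5.30 CPM in hatched blastocysts. For 7 trophectoderm markers these medians were 461 and 78.8 CPM at the 4-cell stage and 5104 and 7324 CPM in hatched blastocysts. Any embryo held at most 79.7 CPM of cumulus markers, 3.89 of oviduct, 27.9 of blood and 28.4 of sperm markers, and PRM1, ODF1 and SMCP of the sperm list were at 0 in every embryo.

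Between the 4-cell stage and the morula, BTG4 and CNOT6L fell and CNOT1 rose in both sources, the in vivo call of CNOT1 being lost after rescaling each embryo to the same sum and with edgeR. A gene was called when limma on log2(CPM + 1) gave a Benjamini-Hochberg adjusted p under 0.001 over all genes tested and an absolute log2 fold change over 1. All 10 genes entered every test. In vivo, 3 of the 10 were called, 1 higher and 2 lower, while 22.8% of all 19834 genes tested were called, 14.9% higher and 7.86% lower. Rescaled or with edgeR, 2 of the 10 were called in vivo, and of all genes 2399 were higher and 1864 lower when rescaled and 1547 and 1373 with edgeR, in place of 2962 and 1559. In vitro, 6 of the 10 were called, 2 higher and 4 lower, against 38.7% of 21780 genes, 16% higher and 22.7% lower. The median log2 fold change was −0.88 over the 10 genes and 0.21 over all genes in vivo, and −1.32 and −0.14 in vitro. From the morula to the hatched blastocyst, 0 of the 10 were called in vivo by limma, edgeR or DESeq2. Of all 18399 genes, limma called 8.95%, 5.81% higher and 3.14% lower. An unadjusted limma p under 0.05 was found for 5 of the 10 and for 6631 of all genes. In vitro, BTG4 and CNOT6L fell again at this step, 2 of the 10, against 20.2% of 20716 genes, 9.98% higher and 10.2% lower. Rescaled to the same sum in each embryo, that last split was 1347 genes higher and 3114 lower in place of 2068 and 2113, and the same number of members, 2, was called.

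**Figure D1:**
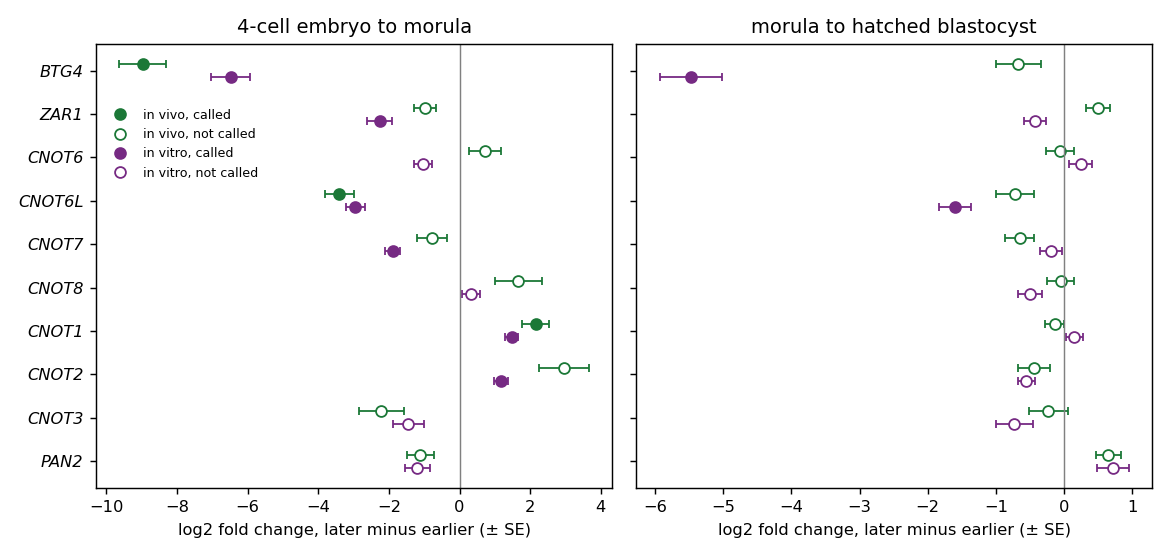
Log2 fold change (later minus earlier stage, on log2(CPM + 1)) of the 10 genes at the steps from 4-cell embryo to morula and from morula to hatched blastocyst, with bars of ± 1 SE. Filled points passed the thresholds and open points did not: BTG4 in vivo lies at −8.97 and −0.67, and in vitro at −6.48 and −5.47.

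BTG4 was plentiful at the 4-cell stage and close to or at 0 in hatched blastocysts. The gene lies on chromosome 9 of Sscrofa11.1 (chr9:39253116-39281327). In the in vivo 4-cell embryos it had 935 CPM in A1, 839 in B1, 216 in C1, 3139 in D1 and 608 in E1. In the in vitro 4-cell embryos it had 5734 CPM in A1, 4273 in B1, 2178 in C1, 6597 in D1 and 6895 in E1. C1 was the lowest embryo of each source, and only D1 of the in vivo embryos lay above the lowest in vitro embryo. BTG4 thus took from 0.0475% to 0.394% of the summed CPM of an in vivo 4-cell embryo and from 0.233% to 0.728% of that of an in vitro one.

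In the in vivo morulae, BTG4 ran from 0 through a median of 0.118 to 13.0 CPM. The 5 replicates A3, B2, F1, G1 and H1 were at 0, and 98 of the 111 reads of the whole group were in D2. In the in vitro morulae it ran from 9.39 through a median of 44.6 to 608 CPM. B2, the embryo with the high oocyte markers, was the highest, and without it the other 9 lay between 9.39 and 67.1 CPM (43.9 ± 16.9). In vivo, BTG4 fell by 8.97 on the log2 scale from 4-cell embryo to morula (SE 0.66, limma adjusted p = 1.67e-09), from 1147 ± 1147 (SD, n = 5) to 1.58 ± 4.03 CPM (n = 10). In vitro, it fell by 6.48 (SE 0.56, adjusted p = 2.47e-09), from 5135 ± 1942 (n = 5) to 100.3 ± 179 CPM (n = 10), and by 6.87 without B2 (adjusted p = 4.93e-12). The 4-cell embryos did not overlap with the morulae in either source, which held for 18.5% of all genes in vivo and 33.4% in vitro.

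In hatched blastocysts, BTG4 was 0 in all 10 in vivo embryos, and 3 reads over the group, the limit taken for a count of 0, would be 0.0717 CPM. This limit covers counting error only. The mean of the in vivo morulae was at least 22.0-fold higher than that limit, and without D2 the mean of the other 9, 0.313 CPM, was at least 4.36-fold higher. The step was not called (log2 fold change −0.67, SE 0.32, adjusted p = 0.136; by edgeR −5.86, adjusted p = 0.00359). In vitro, 8 of 10 hatched blastocysts were at 0, C3 had 0.246 and B4 had 3.90 CPM, 17 of the 18 reads of the group being in B4. Morulae and hatched blastocysts overlapped in each of the 10 genes in vivo, while 4.63% of all genes had groups that did not overlap. The in vitro step of BTG4 was called: BTG4 fell by 5.47 on the log2 scale (SE 0.46, adjusted p = 2.97e-10), the groups not overlapping, as in 10.6% of all genes.

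**Figure D2:**
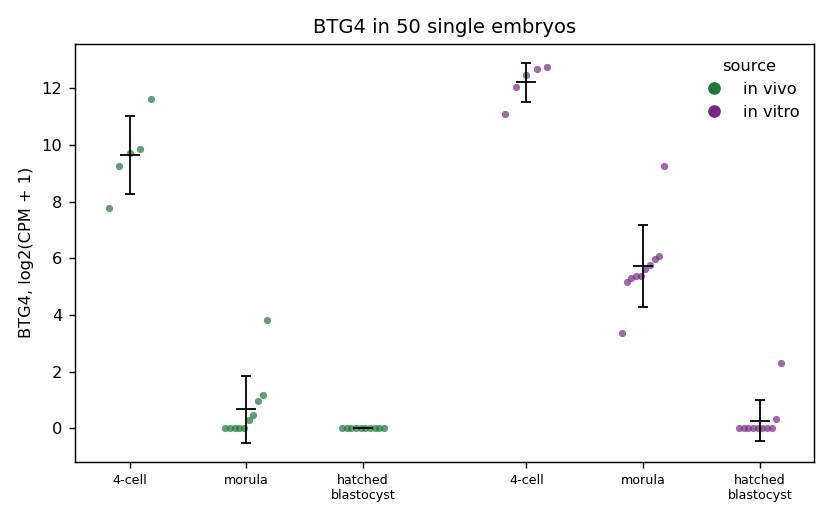
BTG4 in log2(CPM + 1) in each of the 50 embryos by stage, in vivo developed in green and in vitro produced in purple, with the mean and SD of each group in black. The in vivo morulae lie between 0 and 13.0 CPM and the in vitro morulae between 9.39 and 608 CPM, and all but 2 in vitro hatched blastocysts lie at 0.

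The in vivo morulae had less BTG4 than the in vitro morulae. Of the 10 in vitro morulae, 9 lay above the highest in vivo morula, and the remaining one, D2 with 9.39 CPM, lay below the in vivo D2 with 13.0 CPM. The log2 fold change, in vivo minus in vitro, was −5.06 (SE 0.53, 95% interval −6.16 to −3.96, adjusted p = 1.13e-06) and −4.67 without B2 (adjusted p = 4.23e-07). BTG4 was the only 1 of the 10 genes called at this stage, where 2.47% of 20570 genes were called, 0.977% higher and 1.5% lower in vivo. After rescaling to the same sum, 122 genes were higher and 534 lower in place of 201 and 308, and BTG4 was called again (−5.31, adjusted p = 6.28e-07). The summed oocyte markers were 12.1 to 42.5 CPM in the in vivo morulae and 57.4 to 1149 CPM in the in vitro morulae, and their part in the difference was not tested. The study set no comparison between sources before the hatched blastocyst because the cDNA profiles and library smears differed, and the sources were also timed from different events, insemination and fertilization. Source, RNA quality and developmental time at these stages cannot be told apart.

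Among 4-cell embryos, 0 genes of 19927 were called (0%), 0 of the 10 included, with 3 of the 10 genes and 5820 of all genes at an unadjusted p under 0.05. With recovered reads, edgeR called 0 genes and DESeq2 called 284, again 0 of the 10. BTG4 was 2.57 lower in vivo on the log2 scale (SE 0.54, 95% interval −3.71 to −1.43, adjusted p = 0.0246), and it was 1.75 lower by edgeR (adjusted p = 0.119). The median log2 fold change was −0.99 over the 10 genes and −0.66 over all genes. The interval of CNOT1 ran from −1.63 to 0.83 and that of CNOT2 from −3.60 to 0.33, so differences of more than 2-fold in either gene are within it. Without C1, where CNOT2 was 0, the difference in CNOT2 was −0.63 (adjusted p = 0.372). The in vivo embryo with the fewest genes, C1, was the lowest of its group in BTG4, CNOT2, CNOT6L, CNOT7 and CNOT8 and the highest in CNOT1 and CNOT3. Its CPM summed to only 455368, against 593785 in E1 and 870932 in B1, so all its values are scaled low. Its place below E1 in CNOT6L, at 186 against 193 CPM, depends on that scaling. Without C1 the difference in BTG4 was −2.10 (adjusted p = 0.0283).

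Between hatched blastocysts of the 2 sources, 0 of the 10 genes were called by limma, edgeR or DESeq2. Of all 17990 genes, limma called 4.27%, 2.2% higher and 2.07% lower in vivo. An unadjusted limma p under 0.05 was found for 3 of the 10 and for 6030 of all genes. The intervals were narrow here. That of CNOT1 ran from −0.23 to 0.21 and that of CNOT7 from −0.14 to 0.46 on the log2 scale, and that of CNOT6L from −0.53 to 0.37. PAN2 had the smallest adjusted p of the 10, 0.00429, with a log2 fold change of 0.53 (95% interval 0.26 to 0.79), and 46.7 ± 5.26 CPM in vivo against 32.9 ± 9.23 CPM in vitro (n = 10 each).

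The change at each step was also compared between sources, in vivo minus in vitro change. For the step from 4-cell embryo to morula, 0 of the 10 genes were called by limma, edgeR or DESeq2. An unadjusted limma p under 0.05 was found for 5 of the 10 and for 7322 of all 22588 genes. Limma called 3.17% of all genes, 2.8% higher and 0.372% lower. Rescaled, that split was 345 genes higher and 146 lower in place of 633 and 84. For the step from morula to hatched blastocyst, BTG4 was called on log2(CPM + 1) (4.80, SE 0.62, adjusted p = 3.82e-07), 1 of the 10, against 4.49% of 21442 genes, 2.7% higher and 1.79% lower. On recovered reads it was not: edgeR gave 1.56 (adjusted p = 0.906) and DESeq2 2.84 (adjusted p = 0.323). The in vivo morulae held 111 BTG4 reads and the in vivo hatched blastocysts 0, so the in vivo fold without a pseudocount has no upper limit. On log2(CPM + 1) the in vivo fall could not exceed 0.67, the mean of the in vivo morulae. The 4.80 thus follows largely from the difference between morulae, −5.06, and is not a separate result. Rescaled, the split over all genes was 854 higher and 262 lower in place of 579 and 384, with BTG4 at 5.06 (adjusted p = 1.63e-07).

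A part of BTG4's span is shared with another annotated gene, C9H11orf88, over 2440 bases, and Smart-seq2 does not mark the strand. C9H11orf88 had at most 9.82 CPM in any embryo and a mean of 0.295 CPM in the in vitro and 0.582 CPM in the in vivo 4-cell embryos. Its highest value was found in an in vitro morula. Reads from the shared stretch cannot be told apart.

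**Figure D3:**
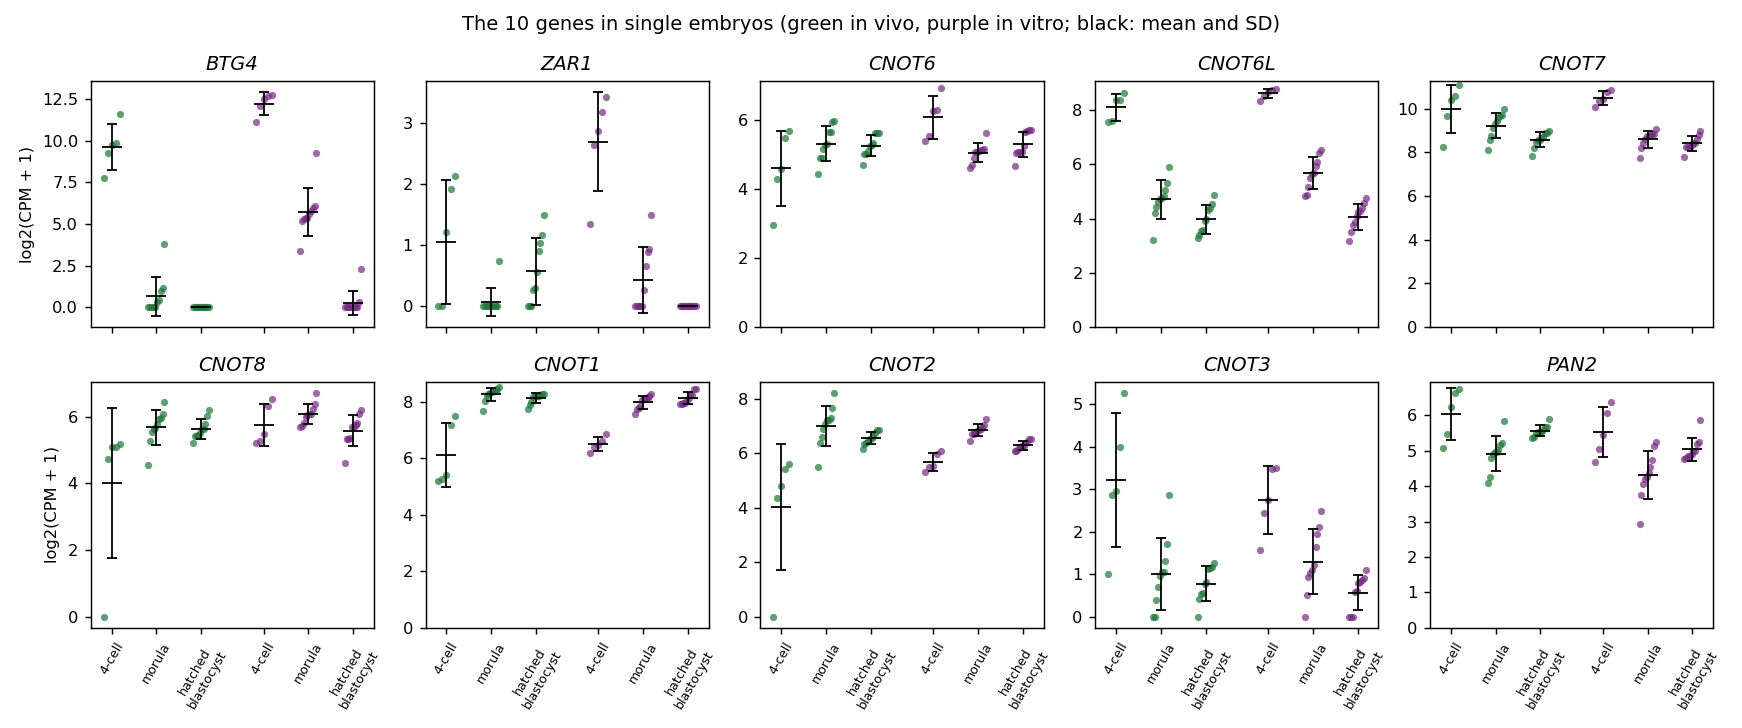
Level of each of the 10 genes in log2(CPM + 1) in the 50 embryos, in vivo developed in green and in vitro produced in purple, with the mean and SD of each group in black and a scale of its own for each gene. CNOT6L and BTG4 step down and CNOT1 steps up after the 4-cell stage in both sources. The in vivo 4-cell embryos are the most widely spread group in every gene but BTG4 and CNOT6L. In CNOT2 and CNOT8 the lowest of them is C1, at 0.

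ZAR1 was read from few reads. It lies on chromosome 8 (chr8:38386520-38391618). The in vivo 4-cell embryos had 2.77 CPM in A1, 0 in B1 and C1, 1.33 in D1 and 3.38 in E1, and the in vitro 4-cell embryos 6.31 in A1, 1.54 in B1, 9.69 in C1, 5.25 in D1 and 8.07 in E1. The in vitro embryos rested on 135 reads together. Of the morulae, 9 of 10 were at 0 in vivo and 5 of 10 in vitro. ZAR1 fell in vitro from 4-cell embryo to morula, by 2.27 on the log2 scale (SE 0.36, adjusted p = 1.07e-05), with B2 of the morulae at 1.83 CPM and above the lowest 4-cell embryo. By edgeR on recovered reads this change missed the threshold (adjusted p = 0.0016). The in vivo value was −0.98 (SE 0.32, adjusted p = 0.0157), with overlapping groups. In hatched blastocysts ZAR1 was 0 in all 10 in vitro embryos, where 3 reads over the group would be 0.0906 CPM, and 0 to 1.81 CPM in vivo, 26 reads in all (log2 fold change 0.57, adjusted p = 0.0104, not called). Its relative ZAR1L, which binds stored mRNA in the mouse oocyte too, is given with the other adaptors.

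Of the catalytic subunits, CNOT6L stepped down with BTG4. CNOT6L, on chromosome 8 (chr8:73191721-73335779), had 330 CPM in A1, 398 in B1, 186 in C1, 332 in D1 and 193 in E1 of the in vivo 4-cell embryos. In the in vitro 4-cell embryos it had 440 CPM in A1, 423 in B1, 325 in C1, 368 in D1 and 407 in E1. The in vivo morulae lay between 8.25 and 59.3 CPM with a median of 25.6, and the in vitro morulae between 27.6 and 90.8 CPM with a median of 49.6. Every 4-cell embryo was above every morula of its source. CNOT6L fell by 3.40 on the log2 scale in vivo (SE 0.41, adjusted p = 1.11e-06), and its in vitro log2 fold change was −2.95 (SE 0.27, adjusted p = 5.38e-09). In hatched blastocysts the medians were 14.4 CPM in vivo, from 8.76 to 28.4, and 16.9 CPM in vitro, from 7.95 to 25.8. The step from the morula was called in vitro, where CNOT6L fell by 1.60 (SE 0.23, adjusted p = 2.6e-06) and the groups did not overlap. In vivo it was −0.72 (SE 0.28, adjusted p = 0.0554), and the difference between the sources' steps, 0.88 (SE 0.36), was not called (adjusted p = 0.0837). MRPL1, which encodes a protein of the mitochondrial ribosome, shares 30336 bases of the span of CNOT6L. MRPL1 had 6.06 ± 8.86 CPM in 4-cell embryos in vivo and 9.47 ± 3.89 CPM in vitro (SD, n = 5 each). In morulae it had 339 ± 138 and 210 ± 68.7 CPM, and in hatched blastocysts 343 ± 72.9 and 286 ± 61.0 CPM (n = 10 each). MRPL1 was thus low at the stage where CNOT6L was high, and high at the later stages where CNOT6L was low. The strand is not marked, so reads from the shared stretch cannot be assigned to either gene. This limit holds for the later CNOT6L values and for the ratio of CNOT6L to CNOT6 below.

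CNOT6, the paralog of CNOT6L on chromosome 2 (chr2:78131236-78202518), had no called change. Its in vivo 4-cell embryos had 6.83 CPM in A1, 50.3 in B1, 22.9 in C1, 44.1 in D1 and 18.7 in E1, within or around the range of the in vivo morulae, 20.7 to 62.1 CPM. Its in vitro 4-cell embryos had 75.9 CPM in A1, 45.3 in B1, 41.4 in C1, 77.1 in D1 and 122 in E1, against 23.3 to 48.8 CPM in the in vitro morulae. The groups overlapped in both sources. The log2 fold changes were 0.72 in vivo (SE 0.44, adjusted p = 0.195) and −1.03 in vitro (SE 0.26, adjusted p = 0.00148). The in vitro value passed the threshold without B1 or C1 and with DESeq2 (−1.17, −1.20 and −1.15).

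CNOT7 fell in vitro after the 4-cell stage. It lies on chromosome 17 (chr17:4934379-4950093). The in vitro 4-cell embryos had 1070 CPM in A1, 1722 in B1, 1850 in C1, 1387 in D1 and 1310 in E1, and the in vitro morulae ran from 211 through a median of 433 to 542 CPM. No 4-cell embryo overlapped with a morula. The log2 fold change was −1.89 (SE 0.22, adjusted p = 1.24e-07). In vivo, the 4-cell embryos were spread from 305 CPM in C1 through 813 in E1, 1366 in B1 and 1537 in A1 to 2140 CPM in D1, and the morulae from 278 to 999 CPM. The groups overlapped, and the change was not called (−0.78, SE 0.43, adjusted p = 0.151), nor was it without C1 (−1.22, adjusted p = 0.0078). The difference between the sources, 1.11 (SE 0.49), was not called either (adjusted p = 0.105). In hatched blastocysts the means were 388 ± 84.1 CPM in vivo and 347 ± 80.2 CPM in vitro (n = 10 each).

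CNOT8, the paralog of CNOT7 on chromosome 16 (chr16:68329785-68352020), had 25.2 CPM in A1, 33.3 in B1, 0 in C1, 35.3 in D1 and 32.8 in E1 of the in vivo 4-cell embryos. The in vitro ones had 78.5 CPM in A1, 43.3 in B1, 35.6 in C1, 91.6 in D1 and 37.1 in E1. All 5 in vitro embryos were above all 5 in vivo ones, by a small margin between 35.3 and 35.6 CPM. This split depends on the scaling. The CPM of a 4-cell embryo summed to 455368 to 870932 in vivo and to 933673 to 970752 in vitro. Such a split was found in 10.1% of all genes, and the difference was not called (−1.74, SE 0.92, adjusted p = 0.216). The morulae had 52.9 ± 17.3 CPM in vivo and 67.9 ± 15.9 CPM in vitro (n = 10 each) and the hatched blastocysts 49.4 ± 11.2 and 48.7 ± 14.4 CPM. CNOT7 shares 462 bases of its span with VPS37A and CNOT8 245 bases with GEMIN5. Levels of GEMIN5 were of the same order as those of CNOT8. At the 4-cell stage GEMIN5 averaged 26.6 CPM (in vivo) and 55.6 (in vitro). Its morula means were 73.1 and 105, and those after hatching 55.1 and 53.0, in the same order. Group means of VPS37A ran from 38.3 to 191 CPM. The strand is not marked, so reads from these shared stretches cannot be assigned to either gene. No step of CNOT8 was called in either source, the largest change being 1.66 from 4-cell embryo to morula in vivo (SE 0.67, adjusted p = 0.0485). That value rests on C1 at 0: without C1 it was 0.66 (adjusted p = 0.128), and the difference between sources at the 4-cell stage −0.73 (adjusted p = 0.308).

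The balance between paralogs of a slot was taken as a log2 ratio of CPM + 1 within each embryo. Exon lengths were not used here, so the height of a ratio does not say which paralog had more transcripts, and only its differences between groups are read. CNOT6L to CNOT6 was 3.50 ± 1.07 in in vivo 4-cell embryos (SD, n = 5), −0.62 ± 0.83 in morulae and −1.28 ± 0.52 in hatched blastocysts (n = 10 each). In vitro it was 2.53 ± 0.58, 0.61 ± 0.67 and −1.24 ± 0.46. The ratio dropped at the step to the morula in both sources without overlap of the groups, by 4.12 in vivo and by 1.92 in vitro (exact permutation test, 2-sided, p = 0.000666, which is the lowest that groups of 5 and 10 can reach, or 0.00155 adjusted over the 14 tests of the 2 ratios). In vitro it dropped by another 1.85 to the hatched blastocyst (permutation test, adjusted p = 0.00084), and the in vivo change there was −0.66 (adjusted p = 0.0707, permutation test). In vivo morulae had a ratio 1.23 below that of in vitro morulae (difference −1.23, permutation test, adjusted p = 0.00244), whereas hatched blastocysts differed by −0.05 (permutation test, adjusted p = 0.831).

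CNOT8 to CNOT7 moved the other way. The log2 ratio was −5.98 ± 1.38 in in vivo 4-cell embryos (SD, n = 5), −3.54 ± 0.49 in morulae and −2.94 ± 0.39 in hatched blastocysts (n = 10 each), and −4.74 ± 0.86, −2.52 ± 0.45 and −2.83 ± 0.45 in vitro. It rose by 2.44 in vivo and by 2.22 in vitro from 4-cell embryo to morula (exact permutation test, adjusted p = 0.00155 each), again without overlap. The lowest in vivo value, −8.26, was that of C1, where CNOT8 was 0, and without C1 the in vivo rise was 1.87 (exact permutation test, adjusted p = 0.004). From morula to hatched blastocyst it rose by 0.60 in vivo (permutation test, adjusted p = 0.0173) and the in vitro change was −0.31 (permutation test, adjusted p = 0.177). Morulae differed between sources by −1.02 (permutation test, adjusted p = 0.00155) and hatched blastocysts by −0.11 (permutation test, adjusted p = 0.622). Whether a step of either ratio differed between sources was not tested. The sources do not give how reads that match both paralogs were counted.

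**Figure D4:**
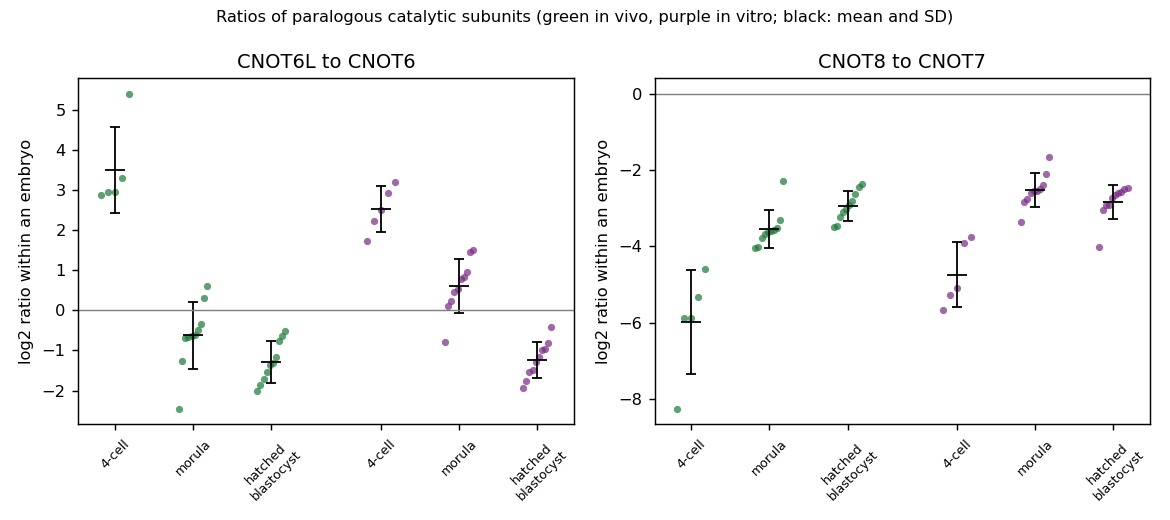
Log2 ratio of CPM + 1 within each embryo for CNOT6L to CNOT6 (left) and CNOT8 to CNOT7 (right), in vivo developed in green and in vitro produced in purple, with the mean and SD of each group in black. Between 4-cell embryos and morulae the left ratio falls from 3.50 to −0.62 in vivo and from 2.53 to 0.61 in vitro, while the right ratio rises.

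The scaffold CNOT1 was higher after the 4-cell stage. It lies on chromosome 6 (chr6:20271593-20372300). The in vivo 4-cell embryos had 35.6 CPM in A1, 144 in B1, 179 in C1, 42.0 in D1 and 37.2 in E1, and the in vivo morulae 204 to 372 CPM with a median of 321. The in vitro 4-cell embryos had 97.3 CPM in A1, 72.1 in B1, 116 in C1, 87.0 in D1 and 84.0 in E1, and the in vitro morulae 191 to 308 CPM with a median of 269. All morulae were above all 4-cell embryos of their source. CNOT1 rose by 1.48 on the log2 scale in vitro (SE 0.19, adjusted p = 4.36e-07), and its rise in vivo was 2.15 (SE 0.39, adjusted p = 0.000165). The in vivo call did not hold after rescaling (1.52, adjusted p = 0.00727) or with edgeR (2.14, adjusted p = 0.00253), and DESeq2 gave no adjusted p for it. Hatched blastocysts had 280 ± 32.8 CPM in vivo and 283 ± 40.7 CPM in vitro (n = 10 each), close to the morulae, and neither step was called.

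CNOT2 and CNOT3 bind each other in the regulatory module, and CNOT2 rose in vitro. CNOT2, on chromosome 5 (chr5:34470911-34548968), had 44.5 CPM in A1, 43.5 in B1, 38.5 in C1, 62.2 in D1 and 67.0 in E1 of the in vitro 4-cell embryos and 86.5 to 152 CPM in the in vitro morulae, median 114. It rose by 1.17 on the log2 scale (SE 0.20, adjusted p = 3.05e-05) and the groups did not overlap. In vivo, the 4-cell embryos had 27.0 CPM in A1, 42.0 in B1, 0 in C1, 19.2 in D1 and 47.8 in E1, and the morulae 43.4 to 296 CPM, median 141. E1 lay just inside the range of the morulae, and the change was not called (2.96, SE 0.70, adjusted p = 0.0018). It passed the threshold without C1 (1.95, adjusted p = 0.000801) or without E1 (3.35, adjusted p = 0.000987). From in vitro morula to hatched blastocyst CNOT2 changed by −0.55 (SE 0.12, adjusted p = 0.000462), under the fold threshold.

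CNOT3, on chromosome 6 (chr6:55975628-55993140), was low throughout. The in vivo 4-cell embryos had 6.83 CPM in A1, 1.01 in B1, 37.6 in C1, 6.27 in D1 and 15.0 in E1, and the in vitro ones 10.3 in A1, 1.98 in B1, 10.2 in C1, 4.41 in D1 and 5.68 in E1. The morulae lay between 0 and 6.28 CPM in vivo and between 0 and 4.57 CPM in vitro, so the groups overlapped, B1 and D1 of each source lying inside the range of the morulae. The log2 fold changes from 4-cell embryo to morula were −2.22 in vivo (SE 0.63, adjusted p = 0.00739) and −1.45 in vitro (SE 0.43, adjusted p = 0.00611), neither called by limma. DESeq2 called the in vivo change (−3.78, adjusted p = 0.000223), in a fit that lacked B1, the lowest in vivo 4-cell embryo. By limma without C1, the highest of them, the change was −1.70 (adjusted p = 0.0208). Hatched blastocysts had at most 1.41 CPM, 7 reads or fewer in an embryo. LENG1, a gene that shares 1113 bases of the span of CNOT3, had means of 8.04 CPM in in vivo and 17.4 CPM in in vitro morulae, and reads from the shared stretch cannot be told apart.

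PAN2, on chromosome 5 (chr5:21712222-21730528), had no called change. Its in vivo 4-cell embryos had 75.0 CPM in A1, 106 in B1, 97.5 in C1, 32.7 in D1 and 43.6 in E1, and its in vitro ones 82.5 in A1, 66.2 in B1, 42.1 in C1, 24.6 in D1 and 32.0 in E1. The morulae had medians of 30.2 CPM in vivo, from 15.9 to 56.5, and 18.8 CPM in vitro, from 6.58 to 37.3. Each stage overlapped with the next. The log2 fold changes from 4-cell embryo to morula were −1.11 in vivo (SE 0.39, adjusted p = 0.0255) and −1.20 in vitro (SE 0.35, adjusted p = 0.00596), and those to the hatched blastocyst 0.65 (SE 0.19, adjusted p = 0.0109) and 0.72 (SE 0.23, adjusted p = 0.0129).

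Of 12 other subunits and adaptors of the deadenylases, 2 were called from 4-cell embryo to morula in vivo, against 22.8% of all genes, and 9 in vitro, against 38.7%. TOB1, which like the BTG proteins binds CNOT7 and CNOT8, rose in both sources. The log2 change was 3.47 in vivo (adjusted p = 8.54e-06), from 4.02 ± 3.57 (SD, n = 5) to 44.6 ± 15.8 CPM (n = 10), and 1.90 in vitro (adjusted p = 1.17e-05). ZAR1L fell in both. The log2 change was −6.93 in vivo (adjusted p = 2.81e-08), from 237 ± 134 to 0.744 ± 1.37 CPM, and −5.76 in vitro (adjusted p = 8.93e-10), from 231 ± 61.7 to 4.99 ± 7.61 CPM. The rest passed in vitro only, which does not show a difference between sources, and no member of the list was called in the comparison of the steps. CNOT9, the subunit that binds RNA-bound recruiters, rose by 3.58 in vitro (adjusted p = 2.25e-09), while its in vivo 4-cell embryos were spread from 0.101 to 215 CPM. BTG3 and BTG1, relatives of BTG4, rose by 4.51 and by 3.04 (adjusted p = 5.69e-10 and 2.13e-06). CNOT4, an E3 ubiquitin ligase, fell by 1.97 (adjusted p = 2e-07) and CNOT11, another subunit, by 1.63 (adjusted p = 3.96e-06). PAN3, the partner of PAN2, fell by 1.46 (adjusted p = 1.53e-06) and PARN, a poly(A)-specific ribonuclease, by 2.11 (adjusted p = 4.11e-07).

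At the step from morula to hatched blastocyst 0 of the 12 were called in vivo, against 8.95% of all genes, and 4 in vitro, against 20.2%. CNOT4 fell by 1.51, BTG1 by 2.06, BTG3 by 1.85 and ZAR1L by 1.75 (adjusted p = 3.84e-08, 3.92e-10, 2.88e-07 and 0.000246). BTG1 and BTG3 thus peaked in the in vitro morulae, at 263 ± 78.4 and 187 ± 40.9 CPM (n = 10 each). In vivo morulae had 53.1 ± 30.3 and 67.9 ± 25.7 CPM, lower by 2.38 and by 1.56 on the log2 scale (in vivo minus in vitro −2.38, adjusted p = 5.95e-07, and −1.56, adjusted p = 0.000139), with no overlap between the sources, as in 0.778% of all genes. These were the 2 of the 12 called between morulae, where 2.47% of all genes were called, 1.5% lower in vivo. As for BTG4, source, RNA quality and developmental time cannot be told apart in morulae. BTG1 was also lower in in vivo hatched blastocysts, with 24.6 ± 9.16 against 62.0 ± 17.6 CPM (−1.33, adjusted p = 7.19e-06).

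**Figure D5:**
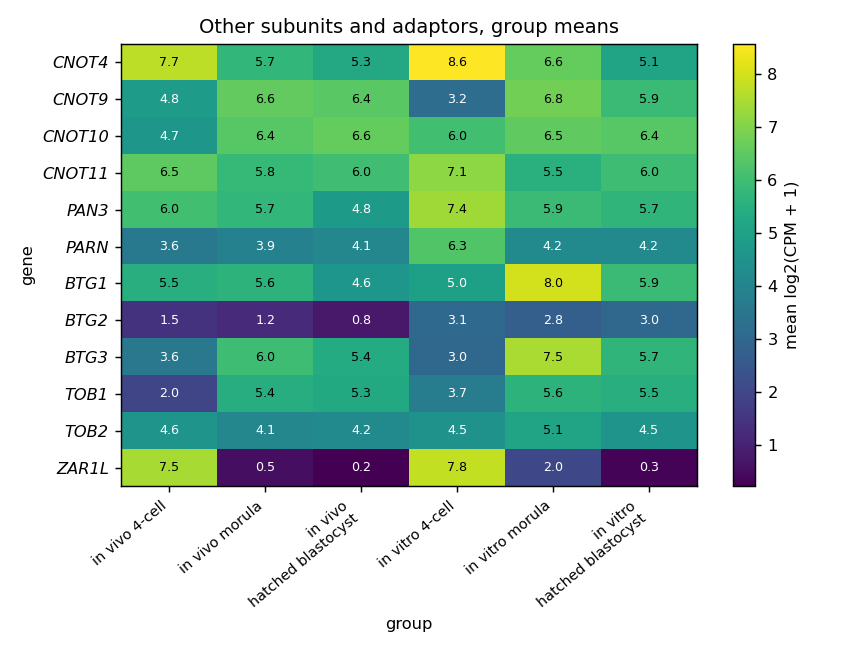
Mean log2(CPM + 1) of 12 other subunits and adaptors in the 6 groups of embryos, n = 5 for 4-cell embryos and 10 for the others, from low (purple) to high (yellow). ZAR1L drops from 7.5 and 7.8 at the 4-cell stage to 0.5 and 2.0 in morulae, and BTG1 and BTG3 are highest in in vitro morulae.

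Across 85 genes of tail shortening, decay, tailing and storage in total, those 12 included, 15 were called higher and 12 lower from 4-cell embryo to morula in vivo, of 84 tested, and 23 and 25 in vitro. Over all genes, 14.9% were higher and 7.86% lower in vivo, and 16% and 22.7% in vitro. The median log2 fold changes were 0.68 and 0.00, against 0.21 and −0.14 over all genes. Of 18 genes that bind poly(A) or store maternal mRNA, 5 rose and 4 fell in vivo (22.8% of all genes were called) and 5 rose and 8 fell in vitro (38.7%). PABPC1L, the poly(A)-binding protein of the oocyte, fell in both sources. It had 93.6 ± 38.2 CPM in in vivo 4-cell embryos (n = 5) and 0 in all 10 in vivo morulae, at least 1322-fold lower when set against 3 reads over the group, and its in vitro log2 fold change was −5.19 (adjusted p = 9.35e-10). PABPC1, the somatic form, had 19.9 ± 20 CPM in in vitro 4-cell embryos and 664 ± 118 CPM in morulae, a rise of 5.41 (adjusted p = 2.89e-11).

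The cap-binding protein EIF4E rose and its oocyte form EIF4E1B fell in both sources. In vivo, EIF4E changed by 7.27 (adjusted p = 1.03e-07), from 13.6 ± 21.9 to 822 ± 343 CPM, and EIF4E1B by −4.07 (adjusted p = 6.86e-05). In vitro, EIF4E changed by 3.44 (adjusted p = 8.05e-08) and EIF4E1B by −5.27 (adjusted p = 8.77e-10), from 74.7 ± 30.8 to 1.21 ± 1.85 CPM. PAIP2, which binds and inhibits PABPC1, rose by 5.79 in vivo (adjusted p = 1.53e-07). IGF2BP1, an mRNA-stabilizing protein, was 0 in all 5 in vivo 4-cell embryos and 53.4 ± 34.5 CPM in in vivo morulae, at least 404-fold higher than the limit of 3 reads over 4 embryos, and in vitro it rose by 5.13 (adjusted p = 8.3e-10).

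Of 11 uridylating enzymes and poly(A) polymerases, 2 rose and 3 fell in each source at that step, where 22.8% of all genes were called in vivo and 38.7% in vitro. TENT5C, a non-canonical poly(A) polymerase, had 4800 ± 2557 CPM in in vivo 4-cell embryos (n = 5) and 20.7 ± 12.0 CPM in in vivo morulae (n = 10), and its log2 fold change was −7.78 (adjusted p = 9.12e-11). It was also lower in in vivo than in in vitro morulae, which had 264 ± 351 CPM with the highest at 1230 CPM (−3.09, adjusted p = 3.81e-05). Source, RNA quality and developmental time cannot be told apart in that difference either. Of 20 recruiters of CCR4-NOT, 19 were tested, and 3 rose and 4 fell in vivo, 4 and 7 in vitro, against the same shares of all genes. CPEB1, which holds stored mRNA with short tails, fell by 5.41 in vitro (adjusted p = 3.65e-08). Of 20 genes of decapping and decay, 3 rose and 0 fell in vivo, and 7 rose and 2 fell in vitro, again beside 22.8% and 38.7% of all genes called. EXOSC10 encodes a nuclease of the nuclear exosome. It was the 1 gene of the 84 tested whose step from 4-cell embryo to morula was called different between sources (limma, −3.88, adjusted p = 4.73e-05). Of all genes, 3.17% were called in that comparison. The value of EXOSC10 was taken from limma only.

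From morula to hatched blastocyst, 2 of 81 tested were higher and 6 lower in vivo, where 5.81% of all genes were higher and 3.14% lower. In vitro, 4 of 84 were higher and 13 lower, where 9.98% of all genes were higher and 10.2% lower. Called in either direction, the shares were close to those of all genes, 8.95% and 20.2%. By direction they were not, with fewer higher and more lower. The split over all genes depends on the scaling, however. Rescaled to the same sum, 1347 of 20778 genes were higher and 3114 lower in vitro, and 819 and 639 of 18177 in vivo. The list was not recounted after rescaling, and its split was not tested. ZFP36L1, which recruits CCR4-NOT to AU-rich elements, rose in both sources (2.68 in vivo, adjusted p = 1.23e-08, and 2.74 in vitro, adjusted p = 8.18e-08). NOCT, a relative of CNOT6 without a place in the complex, changed by −1.79 in vivo (adjusted p = 2.81e-08) and −2.68 in vitro (adjusted p = 1.04e-09), and TENT5C by −2.33 and −4.98 (adjusted p = 6.67e-06 and 2.46e-09). DIS3L and PAPOLG fell in vivo by 1.37 and by 1.32 (adjusted p = 7.72e-05 and 3.58e-06), and YTHDF1 and SAMD4B in vitro by 1.87 and by 1.58 (adjusted p = 2.38e-08 and 0.000275). Between the sources, 3 of 82 tested were lower in in vivo hatched blastocysts, where 2.07% of all genes were lower: BTG1, NANOS1 (−1.26, adjusted p = 9.77e-05) and DAZL (−2.06, adjusted p = 0.000114), the latter pair known from the germ line.

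The genes with a level most like that of BTG4 were ranked by the Pearson r of log2(CPM + 1) over the 50 embryos, among 11470 genes with a symbol and a mean over 1 CPM. The values describe a pattern that the stages dominate, and embryos of 1 stage are not spread evenly along it. For BTG4 they were H1FOO, the linker histone of the oocyte (r = 0.98), NLRP9 (0.98), PEX5L (0.98), ACCSL (0.98) and TNN (0.98). For CNOT6L they were MASTL, the Greatwall kinase of meiosis and mitosis (0.96), SECISBP2L (0.95), TBC1D32 (0.95), CDH7 (0.95) and PPP4R4 (0.95). For CNOT8 they were WRB (0.91), DDX20 (0.91), PHF5A (0.91), CKS1B (0.90) and SEC23B (0.89), and for ZAR1, from its few reads, C6H1orf228 (0.89), ILDR2 (0.86), STON1 (0.86), SCN4B (0.86) and FHOD3 (0.86).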

How the data were processed

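Whole-embryo lysates were amplified with Smart-seq2. The authors clipped reads with Trim Galore and aligned them to Sus scrofa 11.1 with HISAT2, with FastQC and MultiQC for quality, and tested groups in edgeR. Tool versions, the read counter and the release of the annotation are not given in the sources used here. Each embryo's deposited signal is an edgeR CPM value, scaled by a normalization factor. Deposited log2 fold changes and average log2 CPM, likelihood ratio scores, p-values and FDR values hold the authors' own comparisons and were not used.

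The 10 genes and all lists were chosen with earlier results of these data known. Coordinates and symbols come from the RefSeq gene table of Sscrofa11.1, where 17413 of 30321 identifiers had a symbol other than a LOC name. Since the tables hold CPM, genes that passed 0.5 CPM in 1 or more of the fitted embryos were tested with limma 3.58.1 (R 4.3.3, trend) on log2(CPM + 1), which understates folds of low genes, with Benjamini-Hochberg adjustment. Whole reads were recovered from the steps of the values in 49 embryos, 100% of values whole within 0.1 reads. In in vivo 4-cell replicate B1 the step was too close to a round decimal, so B1 is absent from edgeR 4.0.16 and DESeq2 1.42.0. Ratios were compared with permutation tests (scipy 1.17.1, 100000 resamples where both groups had 10 embryos). The scripts were checked on simulated data. Named genes were the 10, other subunits and adaptors where called, up to 5 others per comparison with the largest called change, and the 5 genes most like BTG4, ZAR1, CNOT6L and CNOT8. Alternatives were another pseudocount, filter, scaling and tool, left-out embryos and a replicate block.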

Additional observations from a re-analysis of the deposited data

Results flagged for a closer look

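Within each group of embryos, the gap of the highest or lowest embryo to its neighbour was set against the group's range on log2(CPM + 1) by Dixon's test at 95%. Of 58 groups of values tested, of 60, 7 had such an embryo. Dixon's limit assumes normal values, and some of these groups had many embryos at 0. The count is therefore not set against chance. BTG4 had 608 CPM in in vitro morula B2, with the next embryo at 67.1 CPM, 13.0 CPM in in vivo morula D2 (next 1.25), and 3.90 CPM in in vitro hatched blastocyst B4 (next 0.246). ZAR1 had 0.663 CPM in in vivo morula D2, the other 9 being at 0, so that any value above 0 would have been flagged. CNOT2 and CNOT8 were both 0 in in vivo 4-cell replicate C1, where the next embryos had 19.2 and 25.2 CPM and 1 read was worth 0.223 CPM. PAN2 had 57.2 CPM in in vitro hatched blastocyst E3 (next 36.7). The change of BTG4 from morula to hatched blastocyst differed between sources, in vivo minus in vitro, by 4.80 on log2(CPM + 1), and not on recovered reads. On that scale the in vivo fall could not exceed 0.67, the mean of the in vivo morulae. The causes were not tested.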

How the results depend on the processing

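Called members were recounted 92 times under other settings. Many recounts set 0 against 0 and say little. All those between 4-cell embryos did, where most settings called 0 of all genes. Of the 92 recounts, 90 stayed within 1.5 times the main count, a limit that a fall from 3 to 2 meets. The exceptions were those of BTG4 in the comparison of the steps from morula to hatched blastocyst, where edgeR and DESeq2 on recovered reads called 0 members in place of 1, with BTG4 at 1.56 and 2.84. The 24 recomputed differences of the paralog ratios, of which the settings without C1 or B2 were chosen after seeing the data, stayed on the same side of 0.05. The bound of BTG4 without in vivo morula D2, 4.36 in place of 22.0, was also chosen after seeing the data. No value of a member changed sign where it was called. Of 900 values of single members, 5 lost and 6 gained a call. Losses were CNOT1 in vivo and ZAR1 in vitro from 4-cell embryo to morula and BTG4 as above, and the gains were of CNOT2, CNOT3 and CNOT6 at that step, all given with the genes. Leaving out one 4-cell embryo gave 3 to 4 called members in vivo and 6 to 7 in vitro at the step to the morula.

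Embryo codes shared by the sources did not pair embryos: 0 of 5 pairs of 4-cell embryos, 2 of 8 of morulae and 0 of 6 of hatched blastocysts had residuals with a correlation over 0.1, and 1, 1 and 0 embryos correlated best with their own code. A fit with the code as replicate block called 0, 1 and 0 members, as without it, and 0, 152 and 202 of all genes in place of 0, 509 and 769, over fewer embryos for the last pair. Over all genes, edgeR called 2920 in place of 4521 from in vivo 4-cell embryo to morula, DESeq2 1373 in place of 509 between morulae and 284 in place of 0 between 4-cell embryos. In the comparison of steps to the morula, edgeR called 384, DESeq2 1221 and the fit without in vivo 4-cell replicate D1 1334 in place of 717. Rescaling to the same sum moved the median log2 fold change of all genes from −0.11 to −0.23 between in vitro morula and hatched blastocyst, from −0.66 to −0.52 between 4-cell embryos, from −0.11 to −0.21 between morulae and from 0.39 to 0.20 between the steps to the morula. Changes of ZAR1 and CNOT3 rest on few reads, and a fold of BTG4 below the morula is limited by reads at 0.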
